A study of Rattus norvegicus with 6 samples.

Results

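Matrix metalloproteinases (MMPs) are zinc-dependent enzymes that cut collagens, elastin and other proteins of the extracellular matrix. Most are secreted as inactive precursors, and the tissue inhibitors of metalloproteinases (TIMPs) and the membrane-anchored glycoprotein Reck hold the active enzymes in check. In a fibrotic lung, where matrix accumulates, which cells transcribe the enzymes and which transcribe the inhibitors bears on where matrix can be cut. The 10 genes described here were 6 metalloproteinases, Mmp2, Mmp8, Mmp9, Mmp12, Mmp14 and Mmp19, and 4 inhibitors, Timp1, Timp2, Timp3 and Reck. They were taken by name from the 16383 genes of the deposited table, and all 10 had transcripts in it.

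The table held 25547 single cells of rat lung, with transcripts counted by unique molecular identifiers (UMIs) after single cells had been captured with the BD Rhapsody platform. Young adult Sprague Dawley rats had received 1 dose of bleomycin (BLM, 5 mg/kg) into the trachea, a drug that injures the lung and is widely used to model fibrosis, or an equal volume of saline, and lungs were taken on day 28. There were 3 BLM-treated rats and 3 control rats, 1 library each. The libraries held 3657 to 7481 cells and 8082376 to 16598959 UMIs in BLM-treated lungs, against 2568 to 4598 cells and 3860028 to 12171722 UMIs in control lungs. The median cell had 1253 to 1565 UMIs in BLM-treated libraries and 1066 to 1840 UMIs in control libraries. Of the numbers in the cell names, 314 occurred in more than 1 library, with 11 to 35 shared by any pair of libraries.

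Cells were clustered without the protease and inhibitor genes, which gave 28 clusters. Of these, 26 were placed in 20 classes by lists of marker genes, and 2 were left unnamed. Levels are given as UMIs of a gene per 1000000 UMIs (CPM), either of all cells of a rat or of its cells in 1 class, and classes are compared as a description, without a test.

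The upstream sequences of the members that the reference table held are shown first, since 2 of the proteases and 2 of the inhibitors described below differ in the short motifs there. The table gave 6 of the 10 members, from RefSeq, build GRCr8. It did not give Mmp2, Mmp9, Mmp14 or Mmp19. Each sequence runs 5′ to 3′ over the 150 bases before the annotated start site. Capitals mark matches, on either strand, to TATAAA (the TATA box), TGANTCA (the AP-1 site) and GGGCGG (the GC box).
Mmp8 (chr8:13008740-13008889, + strand): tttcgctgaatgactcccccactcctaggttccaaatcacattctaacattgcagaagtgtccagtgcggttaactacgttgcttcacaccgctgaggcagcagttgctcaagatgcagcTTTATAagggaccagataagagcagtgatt
Mmp12 (chr8:12866502-12866651, + strand): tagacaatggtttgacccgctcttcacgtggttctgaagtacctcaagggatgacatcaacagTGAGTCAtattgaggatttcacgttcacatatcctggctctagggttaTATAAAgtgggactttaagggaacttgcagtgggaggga
Timp1 (chrX:3771123-3771272, - strand): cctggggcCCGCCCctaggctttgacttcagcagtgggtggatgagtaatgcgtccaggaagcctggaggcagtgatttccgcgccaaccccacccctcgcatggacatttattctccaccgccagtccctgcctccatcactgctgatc
Timp2 (chr10:104089215-104089364, - strand): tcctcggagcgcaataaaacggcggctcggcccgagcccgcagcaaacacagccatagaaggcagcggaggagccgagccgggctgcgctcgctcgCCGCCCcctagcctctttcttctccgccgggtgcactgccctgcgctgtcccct
In the full window of the reference, 250 bases before to 50 after the start, Mmp8 and Mmp12 each held 1 TATAAA match, starting 30 and 39 bases before the start site, and no GC box. Timp1, Timp2, Timp3 and Reck held 1, 1, 3 and 4 GC boxes and no TATAAA. The AP-1 letters were found in Mmp12 alone among the 6, starting 87 bases before the start site. Over all 33469 promoter windows of this length, 14.2% held TATAAA, 33.1% held GGGCGG and 7.33% held TGANTCA. These are matches of letters and not measured binding sites.

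Summed over all cells of a rat, 5 of the 10 members were higher in BLM-treated lungs and none was lower, by the quasi-likelihood test of edgeR with p-values adjusted over all genes (Benjamini-Hochberg). All 10 passed the filter on low counts. For comparison, 11.1% of the 13346 genes tested were called higher and 6.33% lower. The called members were 2 proteases, Mmp2 and Mmp12, and 3 inhibitors, Timp1, Timp2 and Timp3. Without a test, 7 members lay higher in all 3 BLM-treated lungs than in all 3 control lungs and none lower, while 19.9% of 16085 genes with at least 10 UMIs lay higher and 13.1% lower. In a summed level, fewer cells of a class and less RNA per cell cannot be told apart.

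Mmp2, gelatinase A, which cuts denatured collagen and basement membrane, had 210, 337 and 229 CPM in the 3 BLM-treated lungs, against 12.1, 56.7 and 37.6 CPM in the 3 control lungs. The lowest BLM-treated lung lay far above the highest control lung, and the log2 fold change was 2.86 (SE 0.48, adjusted p = 0.00806, edgeR). Mmp12, the macrophage elastase, had 73.5, 54.5 and 48.7 CPM in BLM-treated lungs and 6.34, 3.11 and 17.8 CPM in control lungs. These groups did not overlap either, with a log2 fold change of 2.50 (SE 0.52, adjusted p = 0.0161, edgeR). The call for Mmp12 was lost without control rat 1, at an adjusted p of 0.0503 in the same edgeR test.

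Among the inhibitors, Timp1, a secreted inhibitor of most MMPs, had 129, 256 and 187 CPM in BLM-treated lungs, against 34.2, 23.8 and 27.0 CPM in control lungs. Timp3, which binds to the matrix itself and also inhibits ADAM proteases, had 185, 279 and 158 CPM in BLM-treated lungs and 25.5, 65.8 and 53.1 CPM in control lungs. Both were higher in every BLM-treated lung than in every control lung, with log2 fold changes of 2.70 for Timp1 (SE 0.28, adjusted p = 0.00162, edgeR) and 2.08 for Timp3 (SE 0.36, adjusted p = 0.00853, edgeR). Timp2, which inhibits Mmp2 and, bound to Mmp14, also takes part in its activation, had 999, 1312 and 986 CPM in BLM-treated lungs, against 569, 408 and 632 CPM in control lungs. Its difference was smaller, at a log2 fold change of 0.98 (SE 0.24, adjusted p = 0.0276, edgeR). That call was lost without BLM-treated rat 1 (adjusted p = 0.0573, edgeR), BLM-treated rat 2 (adjusted p = 0.123, edgeR) or control rat 1 (adjusted p = 0.0815, edgeR).

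The other 5 members did not pass the test in the summed lung. Mmp14, a membrane-bound collagenase that activates Mmp2, had 126, 141 and 146 CPM in BLM-treated lungs and 56.5, 60.6 and 102 CPM in control lungs. Reck had 41.5, 55.6 and 43.0 CPM in BLM-treated lungs and 7.79, 29.5 and 19.1 CPM in control lungs. For both genes the 3 BLM-treated lungs lay above the 3 control lungs, but the adjusted p was 0.0526 for Mmp14 (log2 fold change 0.85, SE 0.25, edgeR) and 0.0528 for Reck (log2 fold change 1.32, SE 0.39, edgeR). DESeq2 called both, with an adjusted p of 0.0170 for Mmp14 and 0.00773 for Reck.

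Mmp8, the neutrophil collagenase, had 32.8, 18.1 and 13.4 CPM in BLM-treated lungs, against 28.2, 43.5 and 47.9 CPM in control lungs. The groups overlapped through BLM-treated rat 1 (log2 fold change -0.95, SE 0.36, adjusted p = 0.110, edgeR), and without that rat Mmp8 was called lower (log2 fold change -1.39, adjusted p = 0.0302, edgeR). Mmp9, gelatinase B, had 5.93 to 9.77 CPM in BLM-treated lungs and 5.51 to 8.45 CPM in control lungs. Mmp19, a protease with broad activity on basement membrane proteins, had 6.56 to 10.4 CPM in BLM-treated lungs and 4.92 to 8.79 CPM in control lungs. For these 2 genes the ranges overlapped, and the log2 fold changes were 0.11 for Mmp9 (SE 0.30, adjusted p = 0.849, edgeR) and 0.18 for Mmp19 (SE 0.30, adjusted p = 0.724, edgeR).

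**Figure D1:**
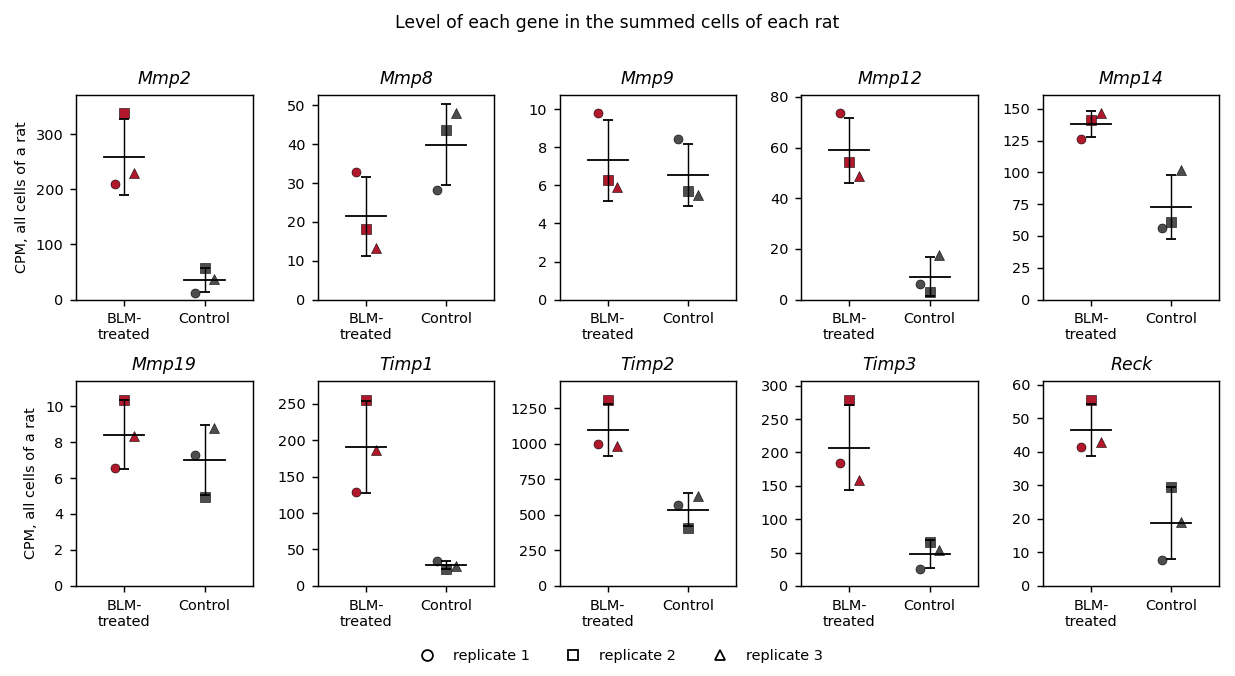
Level of each of the 10 genes (CPM, linear axes from 0) in the summed cells of each rat, with 1 symbol per rat, the mean as a line and the SD as a bar (n = 3 per group). Mmp2, Mmp12, Timp1, Timp2 and Timp3 passed the test, and the BLM-treated rats of Mmp14 and Reck also lay above all control rats, while Mmp8, Mmp9 and Mmp19 overlapped.

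Taking the inhibitors and proteases together, the lung summed to 2.86, 3.26 and 2.95 UMIs of Timp1, Timp2 and Timp3 per UMI of the 6 MMPs in BLM-treated rats, against 5.28, 2.85 and 3.24 in control rats. The groups overlapped, since only control rat 1 stood above the BLM-treated rats. Among classes with a ratio in all 6 rats, the groups also overlapped in fibroblasts, interstitial macrophages, mesothelial cells and proliferating cells. In 3 other such classes they did not overlap. The ratio was 2.75 to 3.29 in BLM-treated and 0.986 to 1.1 in control smooth muscle cells or pericytes, 0.556 to 1.83 in BLM-treated and 0.286 to 0.355 in control neutrophils, and 9.83 to 12.7 in BLM-treated and 4.72 to 9.10 in control alveolar macrophages. The cluster makeup of the muscle class and the markers of the neutrophil class, given below, also differed between the groups. Transcript numbers of different genes depend on length and capture, so the ratio describes change between rats and not the balance of the proteins.

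Mmp2 came almost wholly from stromal cells. Over the 5 rats with at least 10 fibroblasts it averaged 2374 CPM ± 360 (SD, n = 5) in fibroblasts, and every one of these rats lay above the highest smooth muscle or pericyte value, which ranged over 156 to 1310 CPM (n = 6). After thinning each cell to 500 UMIs, 63.0% of the 1037 BLM-treated fibroblasts and 56.5% of the 46 control fibroblasts had an Mmp2 UMI. Unthinned, the shares were 94.6% and 85.1%, at median depths of 3521 and 2048 UMIs. In alveolar macrophages, which should lack Mmp2, the unthinned shares were 0.444% of 2252 BLM-treated cells and 0.132% of 3775 control cells, at median depths of 4190 and 2993 UMIs.

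The class that held the Mmp2 transcripts of the lung differed between the groups. Fibroblasts held 93.6% ± 3.04 of the Mmp2 UMIs in BLM-treated rats, against 25.7% ± 14.7 in control rats (SD, n = 3 each). Smooth muscle cells or pericytes held 4.21% ± 2.45 in BLM-treated rats and 71.5% ± 15.4 in control rats (SD, n = 3 each). In control rats nearly all of that share came from cluster 18, 1 of the 2 clusters of that class, which also carried fibroblast markers, at 8864 to 19593 CPM in BLM-treated rats and 27840 to 35351 CPM in control rats. Cluster 18 held 82 of 82, 131 of 133 and 285 of 296 of the control Mmp2 UMIs of the class, and the muscle cluster 13 held 0, 2 and 11. In control rats, cluster 18 had 1491 to 1541 CPM of Mmp2. In control rats 2 and 3, fibroblasts had 1909 and 2558 CPM and cluster 13 had 39.4 and 95.7 CPM. How far the shift between classes rests on the class name given to cluster 18 was not tested.

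Fibroblasts also held a larger mean share of Reck and Timp3 in BLM-treated rats. They held 73.4% ± 9.96 of Reck UMIs in BLM-treated rats and 24.9% ± 14.2 in control rats, and 66.0% ± 12.6 of Timp3 UMIs in BLM-treated rats and 18.5% ± 8.48 in control rats (SD, n = 3 each). Smooth muscle cells or pericytes held 7.04% to 14.0% of Reck in BLM-treated rats and 53.0% to 57.6% in control rats, and 15.8% ± 9.27 of Timp3 in BLM-treated rats and 34.5% ± 9.16 in control rats (SD, n = 3 each). In control rats these too lay mostly in cluster 18, with 33 of 34, 50 of 63 and 97 of 123 Reck UMIs and 56 of 60, 100 of 114 and 155 of 178 Timp3 UMIs of the class. The limit set by the class name of cluster 18 holds for these genes as well. Alveolar type 2 (AT2) cells, the surfactant-secreting epithelial cells, held 0.356% ± 0.26 of Timp3 in BLM-treated lungs and 26.5% ± 21.1 in control lungs, and club cells held 2.24% ± 1.70 in BLM-treated lungs and 14.8% ± 13 in control lungs (SD, n = 3 each).

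These shifts stand beside a large difference in the cells captured. Fibroblasts were 6.30% ± 2.78 of cells in BLM-treated lungs, against 0.435% ± 0.30 in control lungs (SD, n = 3 each), or 1065 cells against 47. AT2 cells were 0.713% ± 0.538 of cells in BLM-treated lungs and 7.19% ± 1.11 in control lungs (SD, n = 3 each).

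Mmp8 and Mmp9 were both highest in neutrophils. Mmp8 averaged 1138 CPM ± 600 in neutrophils over the 6 rats (SD), and no other class exceeded 41.6 CPM in any rat with at least 10 of its cells. Neutrophils held 73.7% to 92.1% of the Mmp8 UMIs in BLM-treated rats and 95.9% to 98.6% in control rats. Mmp9 averaged 198 CPM ± 107 in neutrophils, followed by natural killer (NK) cells, at 39.5 CPM ± 19.4 (SD, n = 6 each). The lowest neutrophil value, 77.4 CPM, lay above the highest NK value, 61.1 CPM. Neutrophils held 37.5% to 71.2% of the Mmp9 UMIs in BLM-treated rats and 71.9% to 86.4% in control rats, and interstitial macrophages held 1.92% to 29.8% in BLM-treated rats and 0% in control rats.

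The Mmp9 signal of NK cells was present in all 6 rats, at 20.3, 57.9 and 46.6 CPM in BLM-treated rats and 61.1, 14.0 and 37.3 CPM in control rats. An Mmp9 UMI was found in 3.77% of 822 BLM-treated and 4.19% of 549 control NK cells, at median depths of 1026.5 and 1025 UMIs. In T cells, at median depths of 840.5 and 985 UMIs, the shares were 0.0685% of 1460 BLM-treated cells and 0% of 661 control cells. NK cells held 15.2% ± 4.45 of Mmp9 UMIs in BLM-treated rats and 15.3% ± 6.40 in control rats (SD, n = 3 each).

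Mmp12 was highest per class in interstitial macrophages and dendritic cells. It averaged 289 CPM ± 142 in cells classed as interstitial macrophages and 197 CPM ± 104 in dendritic cells (SD, n = 6 each), with overlapping ranges of 136 to 492 and 14.0 to 314 CPM. Interstitial macrophages are those of the tissue outside the airspaces. The class was named from markers, Spp1 and Trem2 among them, and where its cells lay in the lung was not measured. The study annotated its macrophages high in Spp1 and Trem2 as alveolar. Alveolar macrophages, which line the airspaces, had 10.3 CPM ± 9.12 (SD, n = 6). They had 18.6, 15.6 and 4.06 CPM in BLM-treated rats and 2.46, 0 and 20.9 CPM in control rats, so that control rat 3 lay above the other control rats and beside the BLM-treated rats. Interstitial macrophages held 83.5% ± 3.39 of Mmp12 UMIs in BLM-treated rats and 50.2% ± 34.1 in control rats (SD, n = 3 each). In control rat 3 they held 15.3%, and alveolar macrophages held 69.4%, or 150 of 216 UMIs, of which 129 were in cluster 0. Few cells of that cluster held the signal, since 0.778% of its 643 BLM-treated cells and 0.717% of its 2509 control cells had an Mmp12 UMI. Interstitial macrophages were 8.97% ± 3.11 of cells in BLM-treated lungs and 1.87% ± 0.274 in control lungs (SD, n = 3 each).

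Mmp14 and Mmp19 were spread more widely. Mmp14 averaged 520 CPM ± 172 in fibroblasts (n = 5), 317 CPM ± 135 in smooth muscle cells or pericytes, 204 CPM ± 55.1 in mesothelial cells and 135 CPM ± 48.5 in interstitial macrophages (SD, n = 6), and the range of each class overlapped that of the next. Fibroblasts held 40.6% ± 5.46 of Mmp14 UMIs in BLM-treated rats and 3.03% ± 1.55 in control rats, and alveolar macrophages held 13.5% to 17.9% in BLM-treated rats and 34.6% to 78.9% in control rats (SD, n = 3 each). Mmp19 did not exceed 33.2 CPM in any rat and named class of at least 10 cells among its 6 highest classes. Alveolar macrophages held 41.9% ± 3.14 of its UMIs in BLM-treated rats and 81.4% ± 7.70 in control rats (SD, n = 3 each).

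Among the inhibitors, Timp1 was highest in mesothelial cells, the lining of the pleura, at 1387 CPM ± 1048 (SD, n = 6), where it also held the largest part of the lung's Timp1 UMIs, 51.7% ± 9.18 in BLM-treated and 40.8% ± 18.3 in control rats (SD, n = 3 each). Timp2 was the most widespread member, found in 43.5% of all cells, and averaged 2212 CPM ± 392 in mesothelial cells, 1778 CPM ± 904 in fibroblasts, 1295 CPM ± 668 in interstitial macrophages and 904 CPM ± 223 in alveolar macrophages (SD, n = 6, for fibroblasts n = 5). Each of these ranges overlapped the next. Timp3 was highest in fibroblasts, at 1630 CPM ± 582 (SD, n = 5), with every such rat above the highest smooth muscle or pericyte value of 959 CPM. Cluster 18 of that class taken alone did overlap fibroblasts, at 1153 CPM in control rat 2 against 1151 CPM in fibroblasts of BLM-treated rat 3. Reck averaged 654 CPM ± 430 in fibroblasts (SD, n = 5) and 298 CPM ± 195 in smooth muscle cells or pericytes (SD, n = 6), which overlapped.

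**Figure D2:**
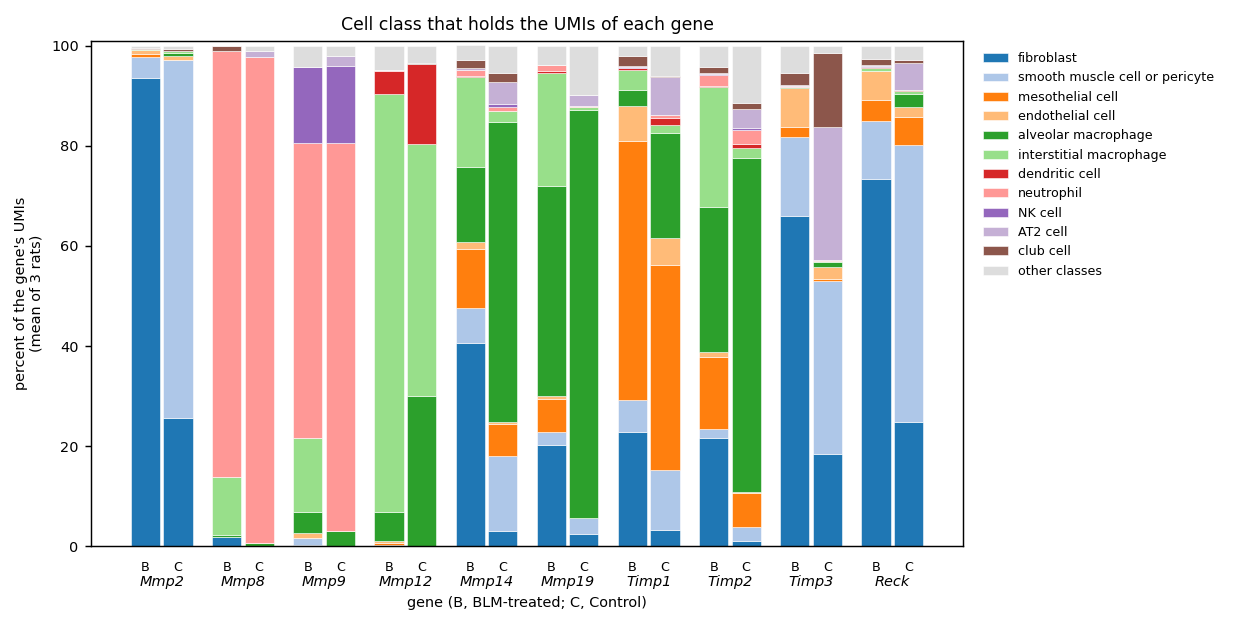
Share of each gene's UMIs held by each cell class (percent, mean of 3 rats), with the BLM-treated bar (B) left of the control bar (C) for each gene. Fibroblasts hold 93.6% of Mmp2 in BLM-treated lungs and 25.7% in control lungs, alveolar macrophages hold 28.9% of Timp2 in BLM-treated lungs and 66.7% in control lungs, and neutrophils hold most of Mmp8 and Mmp9 in both.

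**Figure D3:**
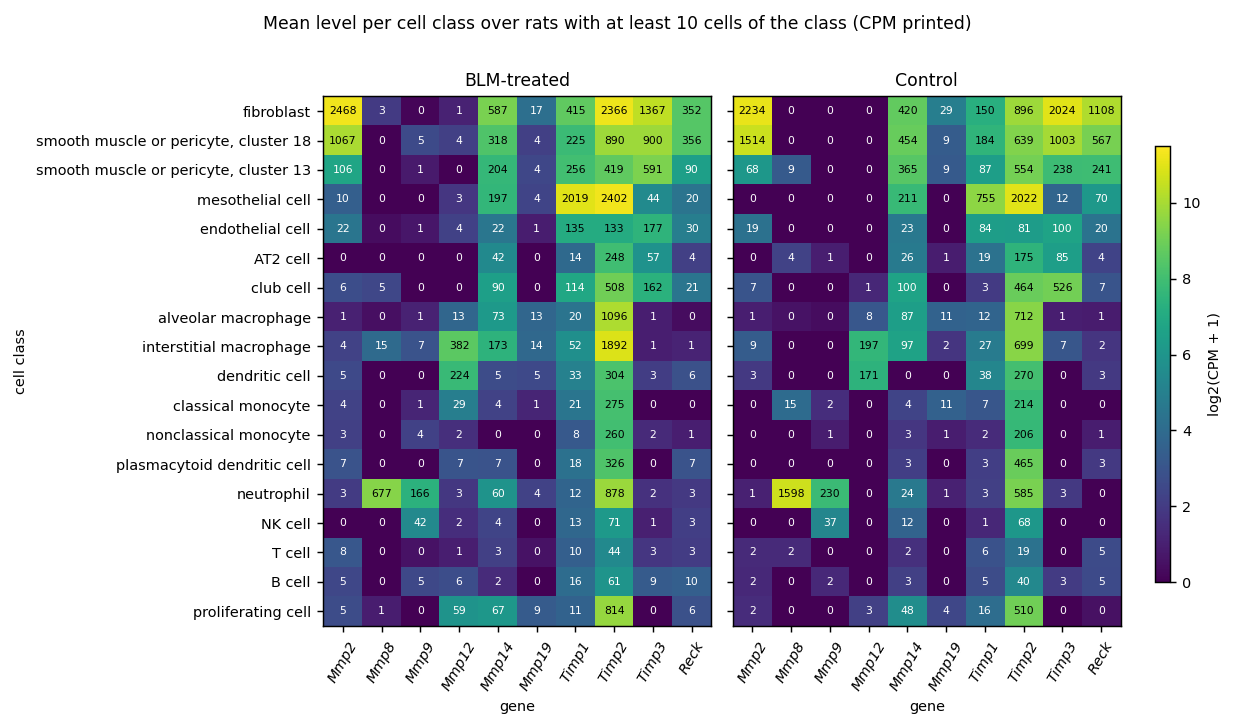
Mean level of each gene in each class shown, over rats with at least 10 of its cells (colour, log2(CPM + 1), and numbers, CPM), BLM-treated left and control right. The smooth muscle or pericyte class is shown as its 2 clusters, and ciliated cells, tuft cells, and mast cells or basophils are not shown. Mmp2 is high in fibroblasts and cluster 18, Mmp8 in neutrophils, Mmp12 in interstitial macrophages and dendritic cells, and Timp1 in mesothelial cells.

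Whether the level within a class differed between BLM-treated and control rats was tested on summed counts per rat in the 17 classes with at least 10 cells in 2 or more rats of each group. Of 52 pairs of class and member that passed the filter on low counts, 7 were higher in BLM-treated cells, 5 were lower and 40 were not called. The called pairs lay in 7 classes. The count of called pairs fell to 7 without BLM-treated rat 1, BLM-treated rat 2 or control rat 1, and to 6 without control rat 2. Over all genes, 3.15% of the tests in these 17 classes were called higher and 2.64% lower.

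In interstitial macrophages all of the called members were higher, and 9.36% of 6092 genes tested were called higher there. Timp2 had 1860, 2080 and 1737 CPM in BLM-treated rats, against 588, 679 and 829 CPM in control rats. Mmp14 had 204, 170 and 144 CPM in BLM-treated rats and 71.7, 95.1 and 126 CPM in control rats. Mmp12 had 492, 224 and 430 CPM in BLM-treated rats and 179, 136 and 276 CPM in control rats. Timp2 and Mmp14 did not overlap between the groups, whereas BLM-treated rat 2 fell inside the control range for Mmp12. The log2 fold changes were 1.56 for Timp2 (SE 0.22, adjusted p = 0.000183), 0.96 for Mmp14 (SE 0.29, adjusted p = 0.0290) and 1.02 for Mmp12 (SE 0.32, adjusted p = 0.0382), all by edgeR.

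The interstitial macrophages of the groups were largely different clusters. Cluster 10, led by Spp1, Apoe and Pf4, held 975 BLM-treated and 10 control cells, and cluster 15, led by C1qc and C1qa, held 505 BLM-treated and 181 control cells. Within cluster 15 alone, no member was called. Timp2 had 789, 1096 and 1050 CPM in BLM-treated rats and 537, 685 and 649 CPM in control rats of that cluster, which did not overlap, with a log2 fold change of 0.68 (SE 0.21, adjusted p = 0.147, edgeR). Mmp12 in cluster 15 had a log2 fold change of 0.65 (adjusted p = 0.385, edgeR). In the class as a whole, the Mmp12 call was lost without BLM-treated rat 1 (adjusted p = 0.128) or rat 3 (0.0726) and without control rat 1 (0.134) or rat 2 (0.123), and the Mmp14 call without BLM-treated rat 1 (0.0756) and without control rat 1 (0.164) or rat 2 (0.0700), all by edgeR, while the Timp2 call was kept without any 1 rat.

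In alveolar macrophages Timp2 was also higher, with 1068, 1105 and 1114 CPM in BLM-treated rats and 758, 583 and 795 CPM in control rats. The BLM-treated rats lay close together above all control rats, and the log2 fold change was 0.59 (SE 0.15, adjusted p = 0.0342, edgeR), in a class in which 6.57% of 9260 genes tested were called higher. Leaving out any 1 of the 3 BLM-treated rats or control rat 1 raised the adjusted p to between 0.0770 and 0.133 (edgeR), with log2 fold changes of 0.57 to 0.63. Timp1 had 20.4, 24.7 and 16.2 CPM in BLM-treated rats and 10.6 to 13 CPM in control rats, with a log2 fold change of 0.78 (SE 0.22, adjusted p = 0.0501, edgeR).

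Here too the clusters differed in number, with cluster 0 (led by Slc39a2) at 643 BLM-treated and 2509 control cells, cluster 4 (led by Olr1 and Fabp4) at 1416 and 265, and cluster 8 at 193 and 1001. Timp2 was called higher within cluster 0 (log2 fold change 0.51, SE 0.13, adjusted p = 0.0242) and within cluster 4 (0.44, SE 0.11, adjusted p = 0.0355), both by edgeR, where 2.85% and 2.81% of genes were called higher. Mmp14 went the other way in cluster 4, with 67.3, 81.4 and 72.0 CPM in BLM-treated rats against 126 and 174 CPM in the 2 control rats with at least 10 such cells. Its log2 fold change there was -1.09 (SE 0.18, adjusted p = 0.00376, edgeR, with 3.44% of genes called lower), while over all alveolar macrophages it was not called, with 69.3, 79.7 and 70.2 CPM in BLM-treated rats and 69.8, 55.0 and 136 CPM in control rats.

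In fibroblasts 2 inhibitors moved in opposite directions. Only control rats 2 and 3 entered this test, with 15 and 29 cells, since control rat 1 had 3 fibroblasts. Reck had 405, 295 and 355 CPM in BLM-treated rats, against 954 and 1262 CPM in the 2 control rats, and Timp2 had 2871, 2497 and 1729 CPM in BLM-treated rats, against 879 and 914 CPM in the 2 control rats. Neither gene overlapped between the groups. The log2 fold changes were -1.46 for Reck (SE 0.27, adjusted p = 0.0251, edgeR) and 1.62 for Timp2 (SE 0.33, adjusted p = 0.0401, edgeR), beside a median of 0.19 over all 7541 genes tested, of which 0.637% were called higher and 0.597% lower.

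Mmp2, the gene with the largest lung-wide fold among the 10 members, overlapped between the groups within fibroblasts. It had 2642, 2068 and 2694 CPM in BLM-treated rats and 1909 and 2558 CPM in the 2 control rats, and its log2 fold change of 0.35 (adjusted p = 0.631, edgeR) was not called. In counts simulated for this test, 5.5% of changes of 1 log2 unit and 34.4% of changes of 2 log2 units were found. The missing call therefore does not show that the level was equal. Timp1 had 369, 535 and 342 CPM in BLM-treated rats and 151 and 150 CPM in control rats, with a log2 fold change of 1.69 that missed the threshold (SE 0.38, adjusted p = 0.0572, edgeR). The calls for Reck and Timp2 in fibroblasts were lost without control rat 2 (adjusted p = 0.121 and 0.228, edgeR), without control rat 3 (0.299 and 0.25), without BLM-treated rat 1 (0.0671 and 0.136) and without BLM-treated rat 2 (0.0763 and 0.101).

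The smooth muscle or pericyte class was a mixture whose makeup differed between the groups. Cluster 13, led by Tagln, Myl9 and Acta2, held 670 BLM-treated and 87 control cells. Cluster 18 held 197 BLM-treated and 223 control cells and carried fibroblast markers as well, at a summed level of 8864 to 19593 CPM for 12 markers in BLM-treated rats and 27840 to 35351 CPM in control rats, against 1359 to 2391 CPM in BLM-treated and 4627 to 6822 CPM in control rats in cluster 13. Over the whole class, Mmp2 (log2 fold change -2.13, SE 0.24, adjusted p = 2.55e-06), Reck (-1.83, SE 0.23, adjusted p = 1.22e-05) and Mmp14 (-0.88, SE 0.24, adjusted p = 0.0166) were called lower by edgeR, as were 6.2% of 5808 genes tested. The Mmp14 call was lost without BLM-treated rat 3 (adjusted p = 0.0713) or control rat 2 (0.191), by edgeR.

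Within the clusters the Mmp2 difference was not called. In cluster 18 Mmp2 had 1125, 902 and 1173 CPM in BLM-treated rats and 1491, 1511 and 1541 CPM in control rats, which did not overlap, with a log2 fold change of -0.47 (adjusted p = 0.331, edgeR). In cluster 13 it had 84.8, 91.3 and 142 CPM in BLM-treated rats and 39.4 and 95.7 CPM in the 2 control rats with at least 10 cells, with a log2 fold change of 0.52 (adjusted p = 0.712, edgeR). The sign thus differed between the clusters, and the Mmp2 value of the whole class cannot be told apart from the change in its clusters.

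Reck was called lower in cluster 13 as in fibroblasts and in the class as a whole. In cluster 13 it had 95.4, 113 and 62.7 CPM in BLM-treated rats, against 256 and 226 CPM in the 2 control rats, with a log2 fold change of -1.35 (SE 0.34, adjusted p = 0.0322, edgeR), where 1.93% of 5864 genes tested were called lower. Those control rats had 13 and 26 Reck UMIs in the cluster, and the fit was not repeated with single rats left out. The summed level of the fibroblast markers given above was also lower in BLM-treated cluster 13, and their part in the result was not tested. In cluster 18 Reck had 399, 297 and 371 CPM in BLM-treated rats and 600, 577 and 525 CPM in control rats, which did not overlap, but the log2 fold change of -0.66 (SE 0.27, adjusted p = 0.188, edgeR) was not called. In cluster 13, Timp1 (log2 fold change 1.56, SE 0.38, adjusted p = 0.0238) and Timp3 (1.44, SE 0.31, adjusted p = 0.00906) were called higher by edgeR, as were 1.42% of genes tested. The 2 control rats had 4 and 11 Timp1 UMIs and 14 and 23 Timp3 UMIs there. In the whole class neither gene was called. Timp3 had 711, 577 and 655 CPM in BLM-treated rats and 959, 830 and 594 CPM in control rats of the class.

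In neutrophils Mmp8 was lower, with 1063, 439 and 529 CPM in BLM-treated rats and 1782, 1154 and 1859 CPM in control rats. The groups did not overlap, and the log2 fold change was -1.39 (SE 0.31, adjusted p = 0.00851, edgeR), in a class in which 9.27% of 3281 genes tested were called lower. After thinning to 500 UMIs, 15.3% of 563 BLM-treated and 32.4% of 513 control neutrophils had an Mmp8 UMI. Without BLM-treated rat 2 the adjusted p was 0.0553 (edgeR).

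The neutrophil class itself differed between the groups. Its 9 marker genes, which do not include a member, summed to 10512 to 21284 CPM in BLM-treated rats, against 37662 to 45216 CPM in control rats, and the 12 markers of interstitial macrophages summed to 5051 to 9397 CPM in BLM-treated and 1033 to 2345 CPM in control rats. Set against the neutrophil markers, Mmp8 had 62.4, 41.7 and 24.8 UMIs per 1000 marker UMIs in BLM-treated rats and 39.4, 30.6 and 43.0 in control rats. On that scale the groups overlapped fully. Mmp9 had 13.8, 7.36 and 8.75 UMIs per 1000 marker UMIs in BLM-treated rats and 8.59, 3.59 and 3.85 in control rats, which overlapped through control rat 1, and 235, 77.4 and 186 CPM in BLM-treated neutrophils and 388, 135 and 166 CPM in control neutrophils.

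Timp1 was the member called in club cells, the secretory cells of the small airways, with 145, 103 and 95.4 CPM in BLM-treated rats and 0, 0 and 8.58 CPM in control rats. The groups did not overlap and the log2 fold change was 4.11 (SE 0.64, adjusted p = 0.00236, edgeR), with 2% of 3757 genes tested called higher. Control rats had 15, 25 and 65 club cells. The summed level of the 8 mesothelial markers moved with it, at 1451 to 1518 CPM in BLM-treated and 236 to 282 CPM in control club cells. In mesothelial cells of either group the sum was 10920 to 14498 CPM. The list includes the keratin gene Krt19, and the sum does not show which of the markers moved. Their part in the result was not tested. Without control rat 3, whose 2 UMIs were the only ones of Timp1 in control club cells, the adjusted p was 0.0608 (edgeR).

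In mesothelial cells, Timp1 had 2113, 3173 and 771 CPM in BLM-treated rats and 910, 396 and 958 CPM in control rats. BLM-treated rat 3 lay within the control range, and the log2 fold change of 1.37 (SE 0.47, adjusted p = 0.174, edgeR) was not called. That rat also held 432 of the 682 BLM-treated mesothelial cells. In proliferating cells Timp2 had 982, 819 and 640 CPM in BLM-treated rats and 570, 390 and 572 CPM in control rats, with a log2 fold change of 0.64 (SE 0.18, adjusted p = 0.0270, edgeR), where 3.54% of 4600 genes tested were called higher. That call was lost without BLM-treated rat 1 (adjusted p = 0.216) or rat 2 (0.147) and without control rat 1 (0.0703) or rat 2 (0.128), all by edgeR. The proliferating class was named from genes of cell division, such as Mki67 and Top2a. Which cell types it held in each group was not examined, and the part of that makeup in the Timp2 result was not tested.

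**Figure D4:**
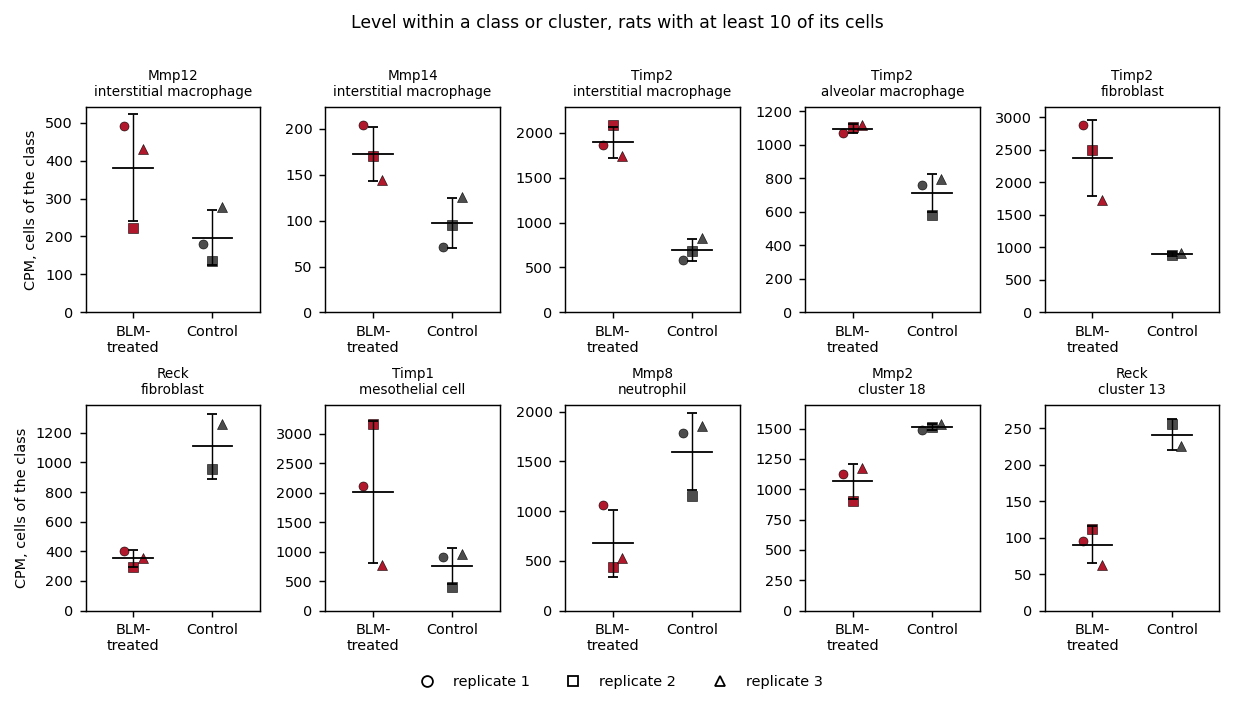
Level of selected genes (CPM, linear axes from 0) in the cells of 1 class or cluster, with 1 symbol per rat that had at least 10 such cells, the mean as a line and the SD as a bar. Timp2 is higher in BLM-treated interstitial macrophages, alveolar macrophages and fibroblasts, Reck is lower in fibroblasts and cluster 13, and Timp1 in mesothelial cells and Mmp2 in cluster 18 were not called.

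To take the makeup of the lung apart from the level per class, each member's lung level was recomputed with every rat given the same class shares, over the 15 classes with at least 10 cells in every rat. Fibroblasts and AT2 cells could not enter. With shares held equal, Timp2 had 670 CPM ± 58.9 in BLM-treated rats and 446 CPM ± 61.2 in control rats, and Mmp12 had 32.8 CPM ± 6.21 in BLM-treated rats and 16.0 CPM ± 8.46 in control rats (SD, n = 3 each). Timp1 averaged 109 CPM in BLM-treated rats and 48.0 CPM in control rats, a log2 ratio of 1.19. These 3 genes were higher in all BLM-treated rats than in all control rats. Mmp2, Mmp8, Mmp14 and Reck were lower in all BLM-treated rats, with Reck at 11.8 CPM ± 1.33 in BLM-treated rats and 28.9 CPM ± 0.384 in control rats and Mmp2 at 16.4 CPM ± 4.54 in BLM-treated rats and 56.7 CPM ± 7.92 in control rats (SD, n = 3 each).

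Each of these 7 genes had an exact two-sided permutation p of 0.10, the smallest that 3 rats against 3 allow, so this design could not reach 0.05. Of 16085 genes with at least 10 UMIs, 9.32% were likewise higher in all BLM-treated rats and 14.8% lower. The lower values of Mmp2, Reck and Mmp14 depend on the smooth muscle or pericyte class, in which cluster 18 made up 197 of 867 BLM-treated cells and 223 of 310 control cells. In that class Reck was 106 to 154 CPM in BLM-treated rats and 410 to 543 CPM in control rats, and Mmp14 was 194 to 242 CPM in BLM-treated rats and 307 to 546 CPM in control rats. Without control rat 1 fibroblasts could enter, and the log2 ratio of Mmp2 was then -0.31, against -1.79 with all rats.

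The reverse calculation gave each class 1 fixed level, the mean of the 2 groups, and let only its share of UMIs differ between rats. For Mmp2, shares alone gave 263 CPM in BLM-treated and 28.4 CPM in control lungs, against measured means of 259 and 35.5 CPM. For Mmp14, shares alone gave 134 CPM in BLM-treated and 71.7 CPM in control lungs, against measured means of 138 and 73.0 CPM. The fixed levels include the smooth muscle or pericyte class, whose Mmp2 was 156 to 286 CPM in BLM-treated rats and 968 to 1310 CPM in control rats, so these figures describe the calculation and do not divide the difference into parts. Timp1, Timp2 and Mmp12 differed more between groups than shares alone gave, with measured log2 ratios of 2.75, 1.04 and 2.70 against 1.81, 0.40 and 1.5 from shares. Reck differed less than shares gave, at 1.31 as measured and 2.83 from shares, and so did Timp3, at 2.11 as measured and 2.50 from shares. For Mmp8 the signs were opposite, at -0.90 as measured and 0.12 from shares. Mmp9 (0.16 as measured, 0.12 from shares) and Mmp19 (0.27 as measured, 0.11 from shares) were near 0 on both scales.

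**Figure D5:**
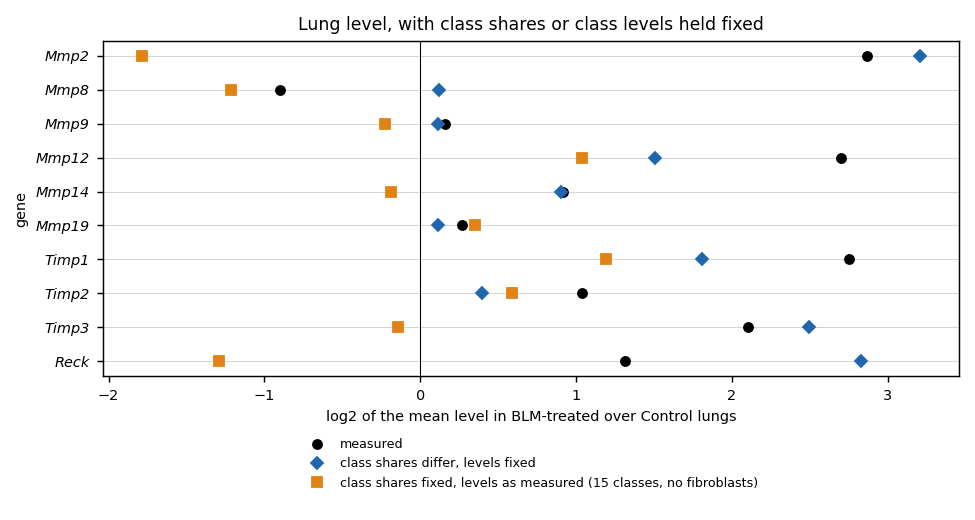
Log2 of the mean level in BLM-treated over control lungs for each gene, as measured (circles), with class levels fixed and shares as captured (diamonds), and with class shares fixed and levels as measured (squares, 15 classes, without fibroblasts). For Mmp2, Mmp12, Mmp14, Timp1, Timp3 and Reck the circle lies nearer the diamond than the square. The squares lack fibroblasts, which held most of the Mmp2, Timp3 and Reck UMIs of BLM-treated lungs, and the cause of the differences was not tested. For Reck the diamond lies right of the circle while the square lies left of 0.

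The genes most like each member over 36 sums of class and group with at least 50 cells, by Pearson's r of log2(CPM + 1), were Mfap5 (r = 0.913), Cyp1b1 and Dpt for Mmp2, Ngp (0.936), Stfa2 and Fpr1 for Mmp8, and Stfa2 (0.775) and Ngp for Mmp9. They were Clec10a (0.765), Gpr34 and Asgr2 for Mmp12, Il11ra1 (0.876) for Mmp14, Igf1 (0.781) for Mmp19, Gulp1 (0.838) for Timp1, Lamp2 (0.781) for Timp2, Igfbp7 (0.903) for Timp3 and Lama2 (0.890) for Reck. The 2 sums of a class share its markers, and the sums of a group share their libraries, so these values carry no p. Dpt and Mfap5 are markers of the fibroblast class, and Fpr1 is a marker of the neutrophil class.

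Other genes of the same system were followed in the summed lung, where the median log2 fold change of all genes was -0.01. Of all 13346 genes tested there, 11.1% were called higher and 6.33% lower, which is the comparison for each list below. Of 17 further MMP and TIMP genes, 10 were in the table, 8 were tested, 5 were higher and 1 was lower, with a median log2 fold change of 2.38. Mmp7, matrilysin, had 127 UMIs in BLM-treated lungs and 0 in control lungs (adjusted p = 0.00374, edgeR). Mmp17 and Mmp23 were higher, with log2 fold changes of 1.98 and 2.78 (adjusted p = 0.00848 and 0.0118, edgeR), and Timp4 was higher at 3.22 (adjusted p = 0.0218, edgeR). Mmp15 was lower, at -1.54 (adjusted p = 0.00996, edgeR).

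Of 18 ADAM and ADAMTS proteases, 17 were tested, 6 were higher and 1 was lower, with a median log2 fold change of 1.23. Adamts4, which cuts aggrecan and versican, had 42.7, 52.7 and 55.5 CPM in BLM-treated lungs and 0.528, 2.33 and 1.31 CPM in control lungs, a log2 fold change of 5.25 (SE 0.33, adjusted p = 0.000541, edgeR), and within endothelial cells its log2 fold change was 5.42 (SE 0.60, adjusted p = 3.63e-05, edgeR). Among 11 tested genes of MMP activation, stabilization and clearance, 4 were higher and none lower (median 0.48), led by Plat, tissue plasminogen activator, with 374, 428 and 554 CPM in BLM-treated lungs against 11.7, 45.3 and 32.1 CPM in control lungs (log2 fold change 3.90, SE 0.43, adjusted p = 0.00204, edgeR). Of 12 matrix substrates, 11 were higher, with a median log2 fold change of 2.04, among them Col1a1 (2.91, adjusted p = 0.00215) and Fn1 (2.04, adjusted p = 0.00225), by edgeR.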

How the data were processed

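The authors deposited 1 table of UMI counts for all cells, made with the BD Rhapsody platform; the values were whole counts, not normalized. No aligner or counter is given in the sources used here, and mm9 is the build listed in the submitters' processing notes, although the genes are rat genes; no file coordinates were used. Each value was read with the name 1 field to its left, because the header was offset, and the last name, Zfp692, had no values. Cell names carried tags absent from the sample labels (N and F, each numbered 1 to 3). They were taken as control and BLM-treated rats because their cell totals are those the study states per group, so the group of each cell rests on this match.

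Cells were clustered with scanpy 1.11.5 and leidenalg 0.10.2 (10000 UMIs per cell, 2000 variable genes without protease and inhibitor genes, 30 components, 15 neighbours, resolution 1.0). A cluster took the class whose markers had the highest mean log2 fold, with at least 3 markers higher and 50 cells, a rule set after a first clustering had been seen. Doublets were not removed, except in an alternative without the 4% of cells per rat with the highest Scrublet score.

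UMIs were summed per rat and class (at least 10 cells) and tested with edgeR 4.0.16 in R 4.3.3 (quasi-likelihood, filterByExpr, TMM), at an adjusted p of 0.05 (Benjamini-Hochberg), after checks on simulated counts. Alternatives were DESeq2 1.42.0, RLE factors, no filter, a replicate block, each rat left out, cells of at least 500 UMIs, resolutions 0.5 and 2.0, and clustering with the protease genes. None of these was run for single clusters. Thinning drew 500 UMIs per cell and left out shallower cells. Members and lists were chosen with earlier results of these data known; all 10 members are named, and from each other list up to 5 called genes. The labels do not say that rats were processed in separate batches.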

Additional observations from a re-analysis of the deposited data

Results flagged for a closer look

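The change with BLM differed between cell classes for 3 members, in 1 edgeR fit over both classes with the rat as a block, a test chosen after seeing the data. Between interstitial and alveolar macrophages, the log2 change differed by 1.41 for Mmp14 (SE 0.29, adjusted p = 0.000346) and by 1.12 for Timp2 (SE 0.19, adjusted p = 2.13e-05), both larger in interstitial macrophages, where 17.5% of 9500 genes tested differed (6 rats). Between clusters 15 and 0 of these classes, the differences were 0.56 for Mmp14 (adjusted p = 0.737, edgeR) and 0.25 for Timp2 (adjusted p = 0.790, edgeR). Between fibroblasts and smooth muscle cells or pericytes, the log2 change differed by 2.45 for Mmp2 (SE 0.37, adjusted p = 0.000422, edgeR) and by 2.03 for Timp2 (SE 0.36, adjusted p = 0.00170, edgeR), both larger in fibroblasts, where 3.11% of 7562 genes tested differed (5 rats). Against cluster 18 alone, the differences were 0.72 for Mmp2 (adjusted p = 0.462, edgeR) and 1.05 for Timp2 (adjusted p = 0.269, edgeR). The cluster makeup of each class moved with these results, and its part was not tested beyond these values. Groups of 3 rats are too small for a test of single outlying rats.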

How the results depend on the processing

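In the summed lung, 4 to 7 of the 10 members were called under the alternatives, against 5. Within classes, 12 pairs of class and member were called, against 22 without a filter on low counts, where genes with few UMIs enter, and 6 to 14 with each rat left out. No other alternative moved a count of members by over 1.5 times. With each rat left out, the log2 fold change in the summed lung ranged over -0.07 to 0.44 for Mmp19 and -0.16 to 0.33 for Mmp9, so that neither had a stable sign. Tested by cluster, which was chosen after seeing the data, Mmp2 in smooth muscle cells or pericytes was 0.52 in cluster 13 (-2.13 in the class) and Timp1 in alveolar macrophages was -0.18 in cluster 0 (0.78 in the class), on the log2 scale, neither called in its cluster. Timp1 and Timp3, called higher in cluster 13, were not called in the whole smooth muscle or pericyte class. The cause of these differences was not tested. Deviations from the group mean of same-numbered rats had correlations of 0.10, -0.06 and -0.13, against -0.12 to 0.15 for differently numbered rats. These values gave no sign of pairing, but 3 rats per group are too few to exclude it. With the replicate block, 6 members were called in the summed lung and 12 pairs within classes. The class of highest level also had the largest thinned share of cells with a UMI for 8 of 10 members at 500 UMIs, 8 at 300 and 9 at 1000. With 2 control rats and 44 control fibroblasts in the test, fibroblast changes are the least certain, and levels of a few UMIs limit Mmp9 and Mmp19.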
